A study of Rattus norvegicus with 6 samples.

Results

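Arpp21, Rgs9, Rxrg, Adora2a, Ptpn5, Adcy5, Gnal and Gpr6 are 8 signalling genes known from striatal medium spiny neurons. They were examined here in the medial prefrontal cortex (mPFC) of rats after a single dose of lysergic acid diethylamide (LSD). All probe sets whose platform annotation names exactly 1 of these genes were kept, which gave 13 of the 8740 probe sets that are not controls. Adcy5 and Rxrg were each read by 3 probe sets, Arpp21 by a pair, and the remaining 5 genes by 1 each. The saline group comprised male Sprague-Dawley rats injected intraperitoneally with saline, and the LSD group comprised rats of the same strain and sex injected with 1 mg/kg LSD, a hallucinogen that acts mainly through the serotonin 2A receptor. Tissue was taken 90 min after injection, and the age of the rats is not given in the labels. Each group was read on 3 Affymetrix rat arrays. Per the labels, tissue of 4 animals was pooled per group. If so, the spread between arrays may be technical. The study's text instead describes every array as its own pool from a pair of rats, in which case the spread would include differences between animals. Which holds is open.

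Medium spiny neurons are the inhibitory projection neurons of the striatum, which integrate glutamate input from the cortex with dopamine input from the midbrain. They form a direct-pathway class, marked by the D1 dopamine receptor, substance P and dynorphin, and an indirect-pathway class, marked by the D2 dopamine receptor, enkephalin and the adenosine receptor gene Adora2a. In both classes receptors drive or restrain the production of cyclic AMP by adenylyl cyclase, and the kinase that cyclic AMP activates phosphorylates many targets. The genes are named for striatal neurons, but the tissue was cortex, and neurons of the cortex also transcribe some of them, Arpp21 and Ptpn5 among them. In bulk tissue, fewer cells of a type and less RNA per cell cannot be told apart.

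The values are log2 units after robust multi-array averaging (RMA), which corrects background, gives all arrays the same distribution and summarises the short probes of each set. Levels of different probe sets cannot be ranked against each other as transcript amounts, since probes differ in how strongly they bind. Saline 1 stood apart, where 78 of 8740 probe sets differed by over 1 log2 unit from the remaining arrays' mean, against 2 to 21 on any other array, so the differences of the 8 genes are also given without it, as are others named below that moved by over 1.5 times. The second line of each sample description names the opposite treatment from the title and the treatment label, which were followed here, and all signs below would reverse if that line were right. RNA integrity can be gauged from probe sets near either end of a transcript: for beta-actin the 3′ minus 5′ value ran from 0.749 to 0.835 log2 units on saline and from 0.640 to 0.712 on LSD arrays, without overlap. Its part in the differences below was not tested. For Gapdh the ranges overlapped, at 0.474 to 0.555 and 0.400 to 0.581.

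The genes were chosen by name, but selected on an earlier view of the contrast between LSD and saline on these same arrays, in which striatal markers, with Arpp21 and Rgs9 among them, had lower values after LSD. Differences between the groups are therefore given as a description, and no test of a member is read from them. Of the 13 probe sets, 12 had a lower mean after LSD and 1 a higher mean, beside 48.6% of all 8740 probe sets with a lower mean. The median difference was -0.11 log2 units, against 0.0045 over all probe sets, and single differences ran from -0.36 to 0.07. Their standard errors in limma, a linear model fitted across all probe sets, lay between 0.085 and 0.21. None of the 13 passed an adjusted p of 0.05 in limma, where 0.0686% of all probe sets passed (6 of 8740). At an unadjusted limma p below 0.05 the count was 1. The share of all probe sets at that p is not given here, so nothing is read from this count. In an exact rank sum test, which cannot pass with 3 arrays per group, the count was 0 after adjustment. In 3 of the 13 all saline arrays lay above all LSD arrays, and in 0 the reverse held, beside 3.79% and 6.58% of all probe sets. Without Saline 1, 12 of 13 were again lower, with a median of -0.18 (0.0013 over all probe sets), and without LSD 1 the median was -0.059 with 10 of 13 lower.

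**Figure D1:**
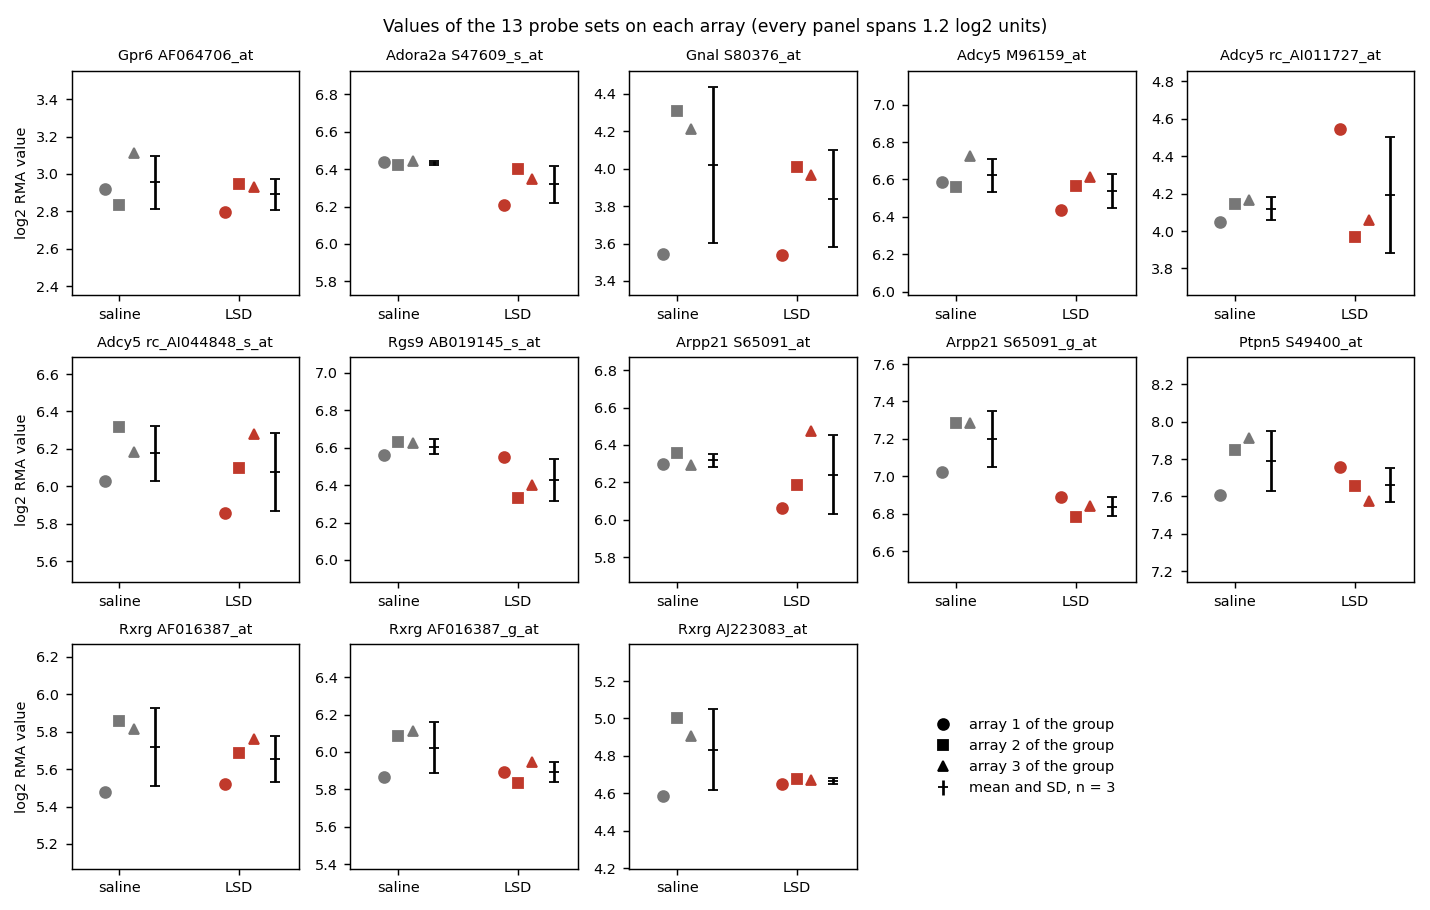
Log2 RMA value (vertical axis, 1.2 units in every panel) of the 13 probe sets on each array (grey for saline, red for LSD), with bars for the mean and SD (n = 3). All saline points lie above all LSD points for Adora2a, Rgs9 and the Arpp21 probe set S65091_g_at, by 0.017, 0.0089 and 0.14 log2 units between the nearest arrays.

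The promoters of the gene with the largest difference, Arpp21, and of Gpr6 are shown because the pathway of these genes ends on promoters: the cyclic AMP response element (CRE) is bound by the factor CREB, which the cyclic AMP-dependent kinase activates. Each stretch holds the 250 bases before the start of transcription in RefSeq on GRCr8, on the minus strand, with the CRE in capitals. Gpr6 lies at chr20:46075252-46075501. The Arpp21 stretch, chr8:121031358-121031607, starts from 1 annotated start and lies within the span of the gene.
Gpr6: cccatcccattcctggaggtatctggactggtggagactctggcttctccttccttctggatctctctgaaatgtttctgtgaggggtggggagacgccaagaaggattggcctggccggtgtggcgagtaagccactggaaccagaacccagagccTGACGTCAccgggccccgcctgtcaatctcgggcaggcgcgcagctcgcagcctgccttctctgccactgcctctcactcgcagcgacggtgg
Arpp21: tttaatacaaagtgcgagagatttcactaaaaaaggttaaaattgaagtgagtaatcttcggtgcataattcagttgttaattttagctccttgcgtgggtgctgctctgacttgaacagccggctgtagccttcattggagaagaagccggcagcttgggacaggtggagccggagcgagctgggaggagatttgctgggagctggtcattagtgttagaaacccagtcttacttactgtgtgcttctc

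The RefSeq table held such a stretch for 7 of the 8 genes, all but Adora2a. The CRE was searched on both strands as TGACGTCA and was found in 1 of the 7, that of Gpr6, where it begins 93 bases before the start, and in 1.59% of 33469 promoters of the same length. Its core TGACG was found in 1 of the 7, again Gpr6, where both matches lie inside the full element, and in 18.2% of all promoters. The GC box GGGCGG was present in 3 of the 7, those of Adcy5, Ptpn5 and Rgs9 (30.5% of all promoters), and the TATA box TATAAA in 0 (12.9%). A match describes these letters only and says nothing on binding.

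Adora2a and Gpr6, the cell-surface receptors of the group, are both known from the indirect-pathway class. Adora2a encodes the adenosine receptor of that class, which stimulates cyclic AMP production and opposes the D2 dopamine receptor. Its values were 6.44, 6.42 and 6.44 log2 units on saline arrays 1 to 3 and 6.21, 6.40 and 6.35 on LSD arrays 1 to 3. The groups did not overlap, but LSD 2 came within 0.017 log2 units of Saline 2, and LSD 1 was the lowest array. The difference was -0.11 ± 0.085 log2 units (SE, n = 3), the same without Saline 1 (-0.11) and -0.06 without LSD 1. This probe set carries the suffix _s_at, used for probes shared between transcripts, so part of its signal may come from another gene.

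Gpr6 encodes an orphan receptor that raises cyclic AMP without an added ligand. It was read at 2.92, 2.83 and 3.11 on the saline arrays and at 2.79, 2.95 and 2.93 on the LSD arrays. The groups overlapped, with a difference of -0.07 ± 0.10 (SE, n = 3), or -0.08 without Saline 1 and -0.02 without LSD 1. Its mean lay at the 4.13th percentile of all 8740 probe sets by brightness, in the dim range where RMA compresses differences and where these files give no call of presence.

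Gnal and Adcy5 encode the step that follows receptor activation. Gnal encodes G alpha olf, the stimulatory G protein subunit that couples D1 dopamine and Adora2a receptors to adenylyl cyclase in the striatum. Gnal was at 3.54, 4.31 and 4.21 on the saline arrays and at 3.54, 4.01 and 3.97 on the LSD arrays. Saline 1 and LSD 1 thus shared the lowest value, and array 2 and array 3 of saline lay above array 2 and array 3 of LSD. The difference was -0.18 ± 0.21 (SE, n = 3), smaller than its error, and -0.42 without Saline 1 and -0.03 without LSD 1. Its SD within groups, 0.347, was at the 96.1th percentile of all probe sets, the most variable of the 13.

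Adcy5 encodes the main adenylyl cyclase of medium spiny neurons. The probe set M96159_at gave 6.58, 6.56 and 6.72 on saline and 6.44, 6.57 and 6.62 on LSD arrays, a difference of -0.08 ± 0.091 (SE, n = 3), of -0.10 without Saline 1 and of -0.03 without LSD 1. With rc_AI044848_s_at the values were 6.03, 6.32 and 6.18 against 5.86, 6.10 and 6.28, a difference of -0.10 ± 0.13 (SE, n = 3), of -0.17 without Saline 1 and of 0.01 without LSD 1. For both the groups overlapped. The third, rc_AI011727_at, was the 1 probe set of the 13 with a higher mean after LSD. It gave 4.05, 4.15 and 4.16 on saline arrays and 4.55, 3.97 and 4.06 on LSD arrays. LSD 1 alone lay above the saline range, and the difference of 0.07 ± 0.15 (SE, n = 3) was 0.04 without Saline 1 and -0.11 without LSD 1.

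Rgs9 and Arpp21 encode proteins that act downstream of dopamine receptors. Rgs9 encodes a regulator of G protein signalling that speeds the shut-off of inhibitory G proteins, and its long splice form is abundant in the striatum. Its probe set, also of the _s_at kind, was at 6.56, 6.63 and 6.62 on saline arrays and 6.55, 6.33 and 6.40 on LSD arrays. LSD 2 and LSD 3 were low, while LSD 1 lay only 0.0089 below Saline 1. The difference was -0.18 ± 0.089 (SE, n = 3), -0.20 without Saline 1 and -0.24 without LSD 1.

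Arpp21 encodes a phosphoprotein regulated by cyclic AMP, which in phosphorylated form binds calmodulin. The probe set S65091_g_at was at 7.02, 7.29 and 7.29 on saline arrays and 6.89, 6.78 and 6.84 on LSD arrays, so the nearest arrays, Saline 1 and LSD 1, were 0.14 apart. The means were 7.20 ± 0.15 and 6.84 ± 0.051 log2 units (SD, n = 3), a 1.28-fold difference or -0.36 ± 0.099 log2 units (SE, n = 3). It was -0.45 without Saline 1 and -0.39 without LSD 1. This is the probe set with an unadjusted limma p below 0.05, from which nothing is read, since Arpp21 was seen to be lower before it was chosen.

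The other Arpp21 probe set, S65091_at, derives from the same sequence entry and read 6.30, 6.36 and 6.30 on saline and 6.06, 6.19 and 6.48 on LSD arrays. LSD 3 was the highest of all 6 arrays and LSD 1 the lowest. Its difference was -0.08 ± 0.12 (SE, n = 3), or -0.09 without Saline 1, and 0.01 without LSD 1. The correlation between both Arpp21 probe sets over the 6 arrays was 0.257, and -0.018 once group means were subtracted.

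Ptpn5 encodes the striatal-enriched phosphatase STEP, which dephosphorylates MAP kinases, the kinase Fyn and glutamate receptors. It was at 7.61, 7.85 and 7.91 on saline arrays and at 7.76, 7.66 and 7.57 on LSD arrays. Saline 1 lay among the LSD arrays, and Saline 2 and Saline 3 lay above all of them. The difference was -0.13 ± 0.11 (SE, n = 3), and -0.22 without Saline 1.

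Rxrg encodes the retinoid X receptor gamma, a nuclear receptor that pairs with retinoic acid and other receptors on DNA. Its 3 probe sets gave the same order of saline arrays in outline, with Saline 1 well below the others. AF016387_at was at 5.48, 5.86 and 5.82 on saline and 5.52, 5.69 and 5.76 on LSD arrays, a difference of -0.06 ± 0.12 (SE, n = 3), of -0.18 without Saline 1 and of 0.0067 without LSD 1. AF016387_g_at was at 5.87, 6.09 and 6.11 against 5.89, 5.84 and 5.95, a difference of -0.13 ± 0.096 (SE, n = 3) and of -0.21 without Saline 1. AJ223083_at was at 4.59, 5.005 and 4.91 against 4.65, 4.68 and 4.67, a difference of -0.17 ± 0.12 (SE, n = 3) and of -0.29 without Saline 1. In all 3 the groups overlapped through Saline 1, and Saline 2 and Saline 3 lay above every LSD array. Correlations among the 3 over the 6 arrays were 0.779, 0.836 and 0.911.

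**Figure D2:**
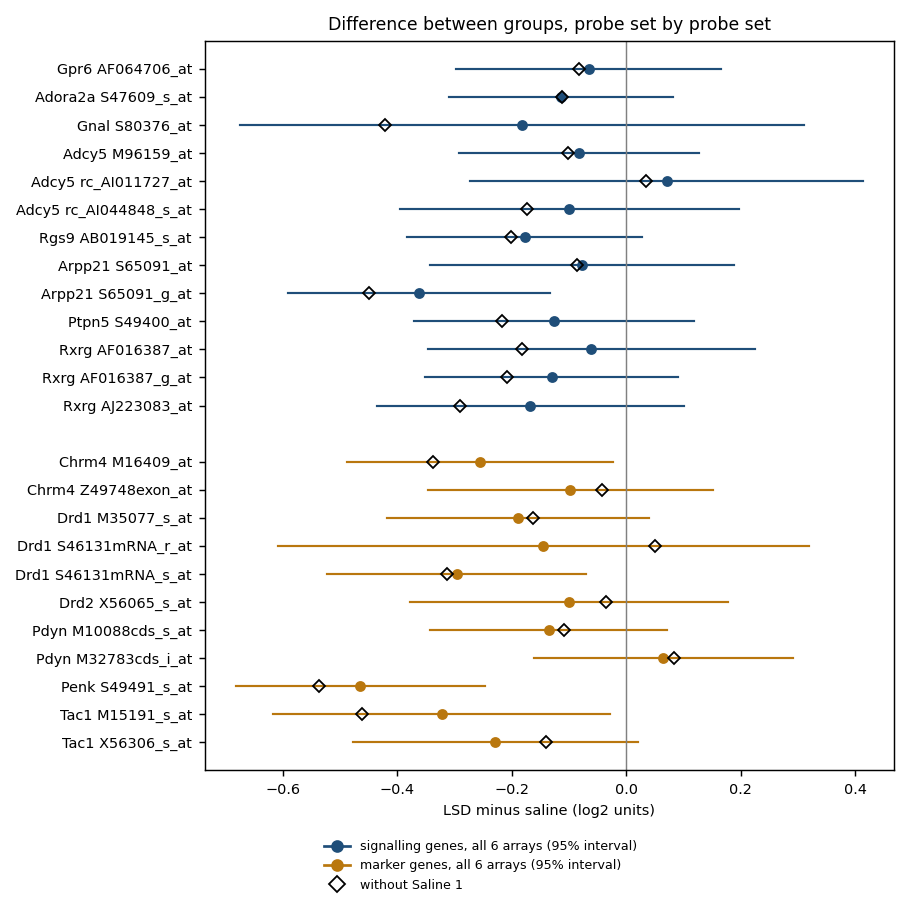
Difference in log2 RMA value between LSD and saline (horizontal axis) for the 13 probe sets of the signalling genes (blue) and the 11 probe sets of defining medium spiny neuron markers (orange), with bars for the 95% interval of limma over all 6 arrays and open diamonds for the difference without Saline 1. The median of the blue points is -0.11 and that of the orange points -0.19, and most intervals include 0.

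With 1 value per gene, from its probe set with the highest mean, 8 of 8 genes had a lower mean after LSD (48.3% of 4736 genes), with a median difference of -0.13 log2 units. None passed, beside 0.0211% of all genes.

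Much of the variation among the 13 probe sets lay within groups. Saline 1 was the lowest saline array in 9 of 13 (43.4% of all probe sets), and both Saline 2 and Saline 3 lay above every LSD array in 8 of 13 (14.8% of all). The mean deviation of the 13 from their own mean was -0.08, 0.13 and 0.14 log2 units on the saline arrays and -0.10, -0.07 and -0.01 on the LSD arrays, so Saline 1 lay among the LSD arrays.

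Pairs of probe sets were compared after the group means were subtracted, which leaves the spread between arrays of a group. Of 71 pairs that read different genes, 53 correlated above 0 (74.6%), with a median Pearson r of 0.368 over 6 arrays, beside 50.3% and 0.01 over all 38189430 pairs of probe sets. These pairs share arrays and genes and are a description only. Gnal and Rxrg AF016387_at correlated at 0.979, and Gpr6 and Adcy5 M96159_at at 0.935. Adora2a and Adcy5 rc_AI011727_at ran in opposite directions, at -0.966. Of the 3 Adcy5 probe sets, rc_AI011727_at correlated negatively with the others (-0.569 and -0.579), whereas those correlated at 0.532.

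**Figure D3:**
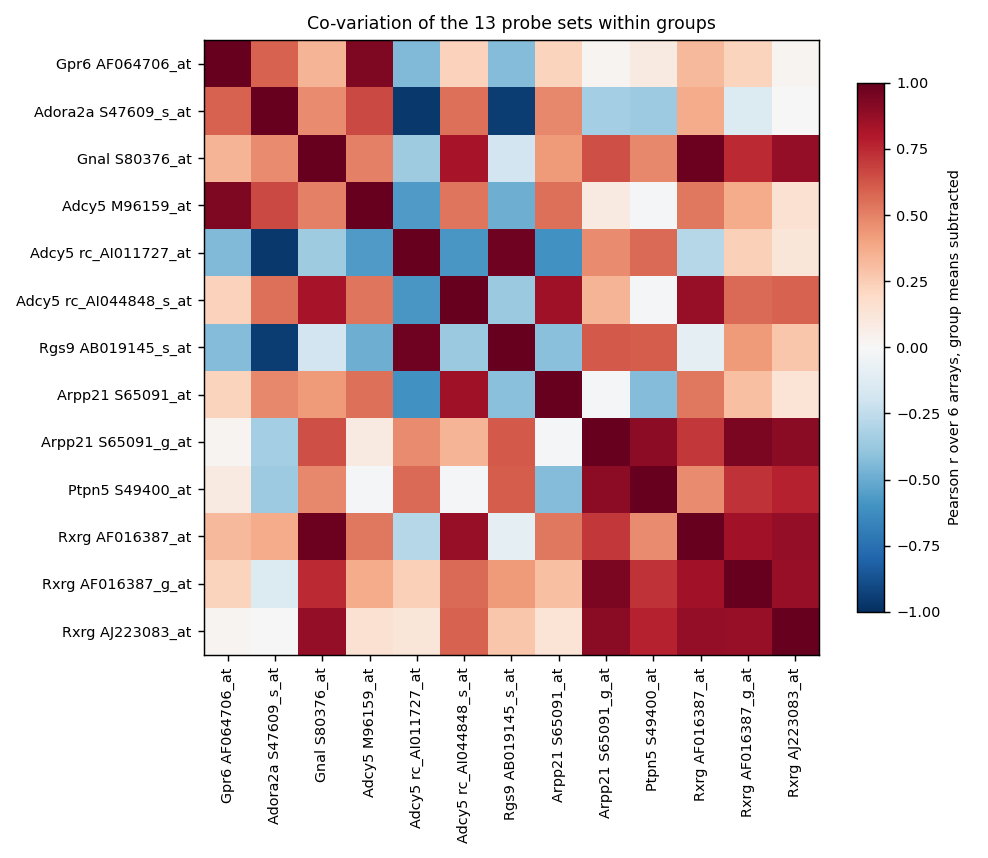
Pearson r between each pair of the 13 probe sets over 6 arrays after subtraction of the group means (colour scale from -1 to 1). Gnal, the Rxrg probe sets, Ptpn5 and Arpp21 S65091_g_at form a red block, and Adcy5 rc_AI011727_at and Rgs9 are blue against Adora2a.

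Genes outside the 8 that define medium spiny neurons within the striatum were examined beside them. The tissue here was bulk cortex, so their values cannot be assigned to a cell type. Of 10 such genes, 6 had a probe set of their own (Drd1, Drd2, Penk, Tac1, Pdyn and Chrm4), and the rest, Ppp1r1b and Pde10a among them, were not analysed here because no probe set carried their symbol alone. The 11 probe sets of the 6 measured genes had values from 2.61 to 9.32 log2 units, and 10 of 11 had a lower mean after LSD, with a median of -0.19 and 0 past the threshold. The mean level over the 11 was 5.28 to 5.33 on saline and 5.04 to 5.19 on LSD arrays, without overlap. In 3 of the 11 all saline arrays lay above all LSD arrays. The reverse held in 0, beside 3.79% and 6.58% of all probe sets. The earlier view of these arrays already had striatal markers lower after LSD, so the values of the markers are a description only. Penk, the enkephalin precursor of the indirect-pathway class, differed by -0.46 ± 0.094 log2 units (SE), and by -0.54 without Saline 1. Tac1, the substance P precursor of the direct-pathway class, differed by -0.32 ± 0.13 in M15191_s_at (-0.46 without Saline 1) and by -0.23 ± 0.11 in X56306_s_at (-0.14 without Saline 1). The D1 receptor gene Drd1 differed by -0.30, -0.19 and -0.14 in its 3 probe sets. Without Saline 1 these were -0.31, -0.16 and 0.05, so that S46131mRNA_r_at changed sign. Their means lay at the 19.5th, 3.05th and 33.0th percentiles by brightness, which puts M35077_s_at below Gpr6 in the dim range. The D2 receptor gene Drd2 differed by -0.10, by -0.04 without Saline 1 and by 0.0043 without LSD 1. The muscarinic receptor gene Chrm4 gave -0.25 in M16409_at and -0.10 in Z49748exon_at, or -0.34 and -0.04 without Saline 1. Pdyn, the dynorphin precursor, gave -0.14 and 0.07, or -0.11 and 0.08 without Saline 1. Whether these markers and the 8 signalling genes share a source of variation was not tested.

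**Figure D4:**
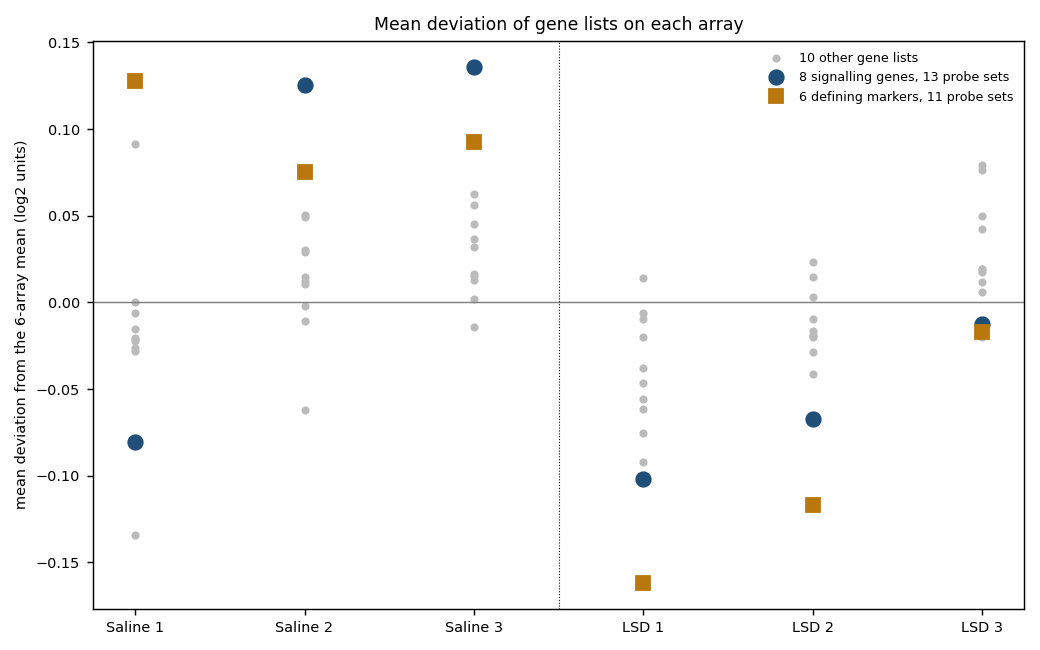
Mean deviation of the probe sets of each gene list from their 6-array mean (vertical axis, log2 units) on every array. The signalling genes (blue circles) are at -0.08 on Saline 1 and 0.13 and 0.14 on the other saline arrays, the defining markers (orange squares) lie between 0.08 and 0.13 on all 3, and the grey points are 10 other lists.

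The sets differed most on Saline 1. The defining markers deviated by 0.13, 0.08 and 0.09 log2 units on the saline arrays and by -0.16, -0.12 and -0.02 on the LSD arrays, so Saline 1 was their highest array, while for the 8 genes it was the second lowest. Without Saline 1 the median of the markers was -0.14, closer to 0, whereas that of the 8 genes was further from 0. A wider list of 19 measured genes enriched in striatum or parts of it had 19 of 32 probe sets lower, with a median of -0.03 (-0.02 without Saline 1) and 0 past the threshold. In that list Itpr1, the calcium release channel of the endoplasmic reticulum, gave 0.31 and -0.16 in different probe sets (0.23 and -0.12 without Saline 1), and the calcium sensor gene Hpca 0.15, the same without Saline 1.

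The rest of the cyclic AMP and G protein pathway was read by 66 probe sets of 41 genes, of which 39 had a lower and 27 a higher mean. The median was -0.04 (-0.05 without Saline 1), with 0 past the threshold in either direction. In 12 of the 66 all saline arrays lay above all LSD arrays. The reverse held in 5, beside 3.79% and 6.58% of all probe sets. Ppp3r1, the regulatory subunit of the phosphatase calcineurin, was higher on all LSD arrays in both its probe sets, by 0.33 ± 0.092 and 0.25 ± 0.092 log2 units (SE), or 0.36 and 0.30 without Saline 1. Ppp1cb, a catalytic subunit of protein phosphatase type 1, differed by -0.46 ± 0.17 with saline higher throughout, and by -0.56 without Saline 1. Paralogs and partners of the 8 proteins, such as other adenosine receptors, RGS proteins, retinoid receptors and tyrosine phosphatases, were read by 45 probe sets of 25 genes. Of these 27 were lower and 18 higher, with a median of -0.04 both with and without Saline 1 and 0 past the threshold. Ptpn11, a tyrosine phosphatase, gave -0.35 and 0.20 in different probe sets (-0.20 and 0.25 without Saline 1), and Mapk14, a substrate of STEP-type phosphatases, gave -0.29 (-0.43 without Saline 1).

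Markers of the cells and tissues that a prefrontal block can hold had medians nearer 0 than the 8 genes or their defining markers. They were -0.03 for cortical excitatory neurons (14 of 24 probe sets lower) and -0.03 for inhibitory neurons (14 of 19), -0.01 for astrocytes (14 of 27), 0.0063 for oligodendrocytes (7 of 14), 0.0074 for microglia (10 of 21), -0.04 for vessels, choroid plexus and meninges (22 of 36) and 0.01 for olfactory, septal and hypothalamic tissue (10 of 21). Without Saline 1 the medians of the excitatory neuron and oligodendrocyte lists were -0.08 and -0.07, and the other 5 lay between -0.04 and 0.03. No probe set of these lists passed the threshold, but single markers differed by more than any of the 13 probe sets, in both directions and without overlap between the groups.

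Ttr, the thyroid hormone carrier made by the choroid plexus, was at 10.52, 10.42 and 10.33 on saline arrays and 9.997, 9.92 and 9.88 on LSD arrays in rc_AA945169_g_at, a difference of -0.49 ± 0.088 log2 units (SE, n = 3). Its other probe set gave -0.41 ± 0.079, and without Saline 1 the differences were -0.44 and -0.39. All saline arrays were thus above all LSD arrays for a choroid plexus marker, as for Adora2a, Rgs9 and Arpp21 S65091_g_at, and its part in their values was not tested. In the same list Igf2, a growth factor of the meninges and choroid plexus, gave -0.24 (-0.28 without Saline 1). Of the excitatory neuron markers, the synaptic vesicle protein gene Sv2b gave 0.43 in L10362_at, with LSD higher throughout (0.40 without Saline 1). Its other, brighter probe set stayed between 9.44 and 9.62 log2 units on all 6 arrays, so its difference was smaller. The pentraxin gene Nptx1 gave 0.27 in 1 of its 3 probe sets, with LSD higher throughout (0.22 without Saline 1). Camk2a, a kinase of excitatory synapses, gave -0.45 in M16960_s_at with saline higher throughout (-0.39 without Saline 1). Its other, brighter probe set stayed between 5.39 and 5.80 log2 units on all 6 arrays, so the size of its difference was smaller.

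Among the inhibitory neuron markers Pvalb gave 0.19 (0.12 without Saline 1), Reln 0.16 and Gad1, which makes GABA, -0.20. Of the glial markers, the water channel gene Aqp4 of astrocytes gave 0.41 and the myelin gene Mobp 0.43, with LSD higher throughout, and both were smaller without Saline 1, at 0.26 and 0.31. The protease inhibitor gene Cst3 gave -0.24 and -0.27 with saline higher throughout, the myelin genes Mog and Ugt8 0.18 and 0.24, the antigen presentation gene Cd74 0.26 and 0.20 (both 0.14 without Saline 1), and the leukocyte gene Ptprc -0.22. The neuropeptide genes Avp and Trh, which mark hypothalamus, overlapped between the groups, at -0.19 for Avp and at -0.27 and -0.16 for Trh (-0.09 and -0.07 without Saline 1). Of cortical markers picked with their values in view, neurogranin (Nrgn) was read at 10.97 to 11.12 and cholecystokinin (Cck) at 10.38 to 10.51 log2 units over the 6 arrays. Others of the excitatory list read lower, such as Slc17a7 at 4.51 to 4.87 and Rorb at 3.33 to 3.73. The striatal marker Pdyn read 9.02 to 9.32 in its brighter probe set. Levels of different probe sets cannot be ranked, so these values do not settle the tissue. Oligodendrocyte markers shared a low Saline 1 with the 8 genes, at -0.13 against -0.0019 and 0.06 on the other saline arrays, and its part in their values was not tested.

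Among 6993 probe sets of other genes, those with the profile most like the mean of the 8 genes over the 6 arrays were Pnoc, Dgka, Cox6a1, Ppm1a and Arrb2, with a Pearson r of 0.986 to 0.990. With 6 points a correlation is imprecise, so these ranks are a description only. Of the 6993 probe sets, 153 exceeded 0.9 and 75 lay below -0.9. After group means were subtracted the closest were Psmb5, Or10al7, Mapkapk3, Chrna6 and Mag (0.995 to 0.999). Of the defining markers, Tac1 M15191_s_at (0.930), Chrm4 M16409_at (0.889) and Penk (0.793) were the most alike over the 6 arrays. The other Tac1 and Chrm4 probe sets correlated at 0.141 and 0.081, and only Pdyn M32783cds_i_at (-0.332) and Drd1 S46131mRNA_r_at (-0.266) negatively. These values include the group difference, known beforehand for striatal markers, so they are partly built in. After group means were subtracted, Tac1 M15191_s_at (0.877), Chrm4 M16409_at (0.808), Penk (0.711) and Drd1 S46131mRNA_s_at (0.432) stayed positive. All other marker probe sets were negative, from -0.038 (Drd1 M35077_s_at) to -0.620 (Tac1 X56306_s_at).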

How the data were processed

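RNA of the mPFC was hybridised to 6 Affymetrix arrays (3 saline, 3 LSD), grouped by their titles. The deposited log2 values were made by the authors with RMA as implemented in the affy package, whose version is not given in the sources used here. RMA forces a common distribution on the arrays, which hides any shift common to most transcripts. Arrays have no read depth, and their number limits the precision. The 59 control probe sets were dropped and the other 8740 entered limma 3.58.1 (R 4.3.3) with lmFit, eBayes and two-sided tests, Benjamini-Hochberg adjustment over all of them and a threshold of 0.05. Gene symbols came from the platform annotation, and all 8 gene IDs matched RefSeq (GRCr8). The script was tested on simulated data. The genes, lists, tests and alternatives were chosen with earlier results of these data known. All 13 probe sets are named, as are the defining markers measured, the 3 probe sets of lowest p in each other list, and the 5 closest profiles. Alternatives were 3 further scalings, a brightness filter, an intensity trend with robust prior, weighting of arrays, a block on the replicate number, an exact rank sum test, other ways to combine probe sets, and leaving out each array.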

Additional observations from a re-analysis of the deposited data

How the results depend on the processing

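Under the alternatives, 165 differences of single probe sets were recomputed, and 7 of them in 5 probe sets changed sign. All lay within 1 within-group SD of the values given, but for most this was fixed in advance. Leaving out 1 array of a group of 3 cannot move a difference that far. The brightness filter, the intensity trend with robust prior and the replicate block leave the differences themselves unchanged. Leaving out 1 array gave 10 to 12 of 13 probe sets lower, with a median from -0.18 (without Saline 1) to -0.06 (without LSD 1), and 7 to 8 of 8 genes lower, with a median from -0.20 to -0.09. None of the 13 passed under any alternative except array weights, where 1 did (Arpp21 S65091_g_at). The number of all 8740 probe sets past the threshold was 6. It was 20 with an intensity trend and robust prior, 42 with array weights and 0 in the exact rank sum test. Without 1 array it was 0 to 3, with 3 after Saline 1 was left out and 0 after any other. When only the 4370 probe sets above the median brightness were tested, the number was 16 of those. At the level of genes the number past the threshold was 1, 4 when the probe sets of a gene were averaged, and 0 without any 1 array. Of the 100 probe sets most like the 8 genes, 23 stayed among the 100 most alike after group means were subtracted and 49 without Saline 1.

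With the replicate number as a block 0 probe sets passed. Deviations of same-numbered arrays correlated at -0.018, -0.232 and 0.175, and those of arrays with unlike numbers at -0.150 to 0.205. The deviations within a group depend on one another, so these values cannot settle whether same-numbered arrays share more than a number.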
